A study of Rattus norvegicus with 6 samples.

Results

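The amino acid transporter genes are the carriers that move amino acids, and some related small molecules, across cell membranes. They were chosen by gene symbol, from the solute carrier families Slc1a, Slc3a, Slc6a, Slc7a, Slc36a, Slc38a and Slc43a, leaving out Slc6a6 and Slc6a12, the carriers of the osmolytes taurine and betaine (Slc6a12 has no probe set with a single gene name here). The rule found 54 genes among the 14506 genes measured, each represented by 1 probe set. One of them, Slc7a6os, carries the name of its neighbour Slc7a6 but is not a transporter, so 53 are carriers. The Slc6a family also holds carriers of GABA, creatine and monoamine transmitters, which are described as a group of their own.

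Affymetrix arrays, 1 for each animal, measured RNA of the endosalpinx, which is the oviduct's inner lining, from adult Sprague-Dawley rats of 240 to 280 g. The 3 mated females were placed with a fertile male at 2200 h of pro-estrus, had sperm or a plug in the vagina when examined 30 min later, stayed with the male, and were killed 3 h after mating with abundant semen in the uterus. The 3 unmated females were kept alone, showed an edematous uterus and were killed at 0130 h of estrus. Company of a male and mating itself cannot be told apart in this design. Values are log2 signals, so a difference of 1 is a doubling, and signals of different genes are not compared because each probe set binds with its own efficiency.

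Amino acid carriers feed protein synthesis, redox defence and nitric oxide production, and in the oviduct they also shape the fluid in which sperm, eggs and early embryos are held. Several work in pairs: a heavy chain of the Slc3 family brings a light chain of the Slc7 family to the plasma membrane, where it swaps one amino acid for another. Others, such as members of the Slc1, Slc6 and Slc38 families, draw on the sodium gradient to load amino acids into the cell, and the Slc36 carriers use protons. When amino acids run short, the transcription factor ATF4 binds composite elements in its target genes, among them several carriers.

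Promoter sequences are shown here for 4 members. Slc6a14 had the largest difference between mated and unmated rats, and Slc1a4, Slc38a1 and Slc7a1 were the members whose window held the amino acid response element TGATGNAA on either strand. The windows are those of RefSeq on assembly GRCr8, written in the direction of the gene. They run from 250 bases before to 50 bases after a start listed for the gene. Of the 54 members, 42 matched the promoter table by gene identifier. For Slc6a14 the start used in that table lies inside the RefSeq gene, which begins at 117109063. The starts used for Slc1a4 and Slc38a1 also lie inside their genes, which begin on the minus strand at 98761672 and 129681727. These windows therefore lie partly or wholly within the gene and may not be those of the main transcripts. Capitals mark letters of any of 8 motifs searched on both strands.
Slc6a14, chrX:117144676-117144975, plus strand: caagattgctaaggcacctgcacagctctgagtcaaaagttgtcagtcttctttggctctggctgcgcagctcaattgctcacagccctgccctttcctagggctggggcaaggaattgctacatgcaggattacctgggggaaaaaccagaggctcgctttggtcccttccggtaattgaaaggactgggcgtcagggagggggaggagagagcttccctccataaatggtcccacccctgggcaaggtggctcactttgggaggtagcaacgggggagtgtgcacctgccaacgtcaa
Slc1a4, chr14:98761513-98761812, minus strand: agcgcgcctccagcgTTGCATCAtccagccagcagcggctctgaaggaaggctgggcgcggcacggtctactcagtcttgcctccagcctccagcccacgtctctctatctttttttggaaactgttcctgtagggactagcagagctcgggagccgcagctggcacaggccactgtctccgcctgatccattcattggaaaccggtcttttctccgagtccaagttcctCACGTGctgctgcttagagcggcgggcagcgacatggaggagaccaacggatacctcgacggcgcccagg
Slc38a1, chr7:129681352-129681651, minus strand: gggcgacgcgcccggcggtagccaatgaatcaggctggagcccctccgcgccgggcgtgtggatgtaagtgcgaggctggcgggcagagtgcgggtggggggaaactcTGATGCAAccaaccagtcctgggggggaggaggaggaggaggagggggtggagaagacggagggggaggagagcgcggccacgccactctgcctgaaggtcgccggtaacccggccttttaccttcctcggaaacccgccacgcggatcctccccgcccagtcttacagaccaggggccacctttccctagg
Slc7a1, chr12:11664238-11664537, plus strand: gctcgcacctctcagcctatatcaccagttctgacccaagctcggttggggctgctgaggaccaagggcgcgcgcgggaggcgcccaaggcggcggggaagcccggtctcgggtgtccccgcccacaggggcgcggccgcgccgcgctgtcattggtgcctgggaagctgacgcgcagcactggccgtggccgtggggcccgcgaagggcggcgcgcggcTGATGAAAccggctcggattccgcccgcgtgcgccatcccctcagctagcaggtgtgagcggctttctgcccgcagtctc

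In these windows the amino acid response element reads TTGCATCA in Slc1a4, TGATGCAA in Slc38a1 and TGATGAAA in Slc7a1, and the second run of capitals in Slc1a4 is the E-box CACGTG, the site of clock factors. The Slc6a14 window held none of the motifs. The amino acid response element was found for 3 of 42 members, and in 3.98% of all 33469 promoter windows. For every motif a member was counted if any of its windows matched, and some members had several. The percentages are of single windows, so the 2 measures are not like for like. The E-box was found for 7 of 42 members and in 6.42% of windows, and the AGGTCA element of estrogen and retinoid receptors for 5 members and in 16.2% of windows. The AGAACA element of glucocorticoid and progesterone receptors was found for 6 members (20.7% of windows), the TATA box TATAAA for 4 (14.2%) and the NF-kB site GGGNNTTCC for 3 (5.92%). The cyclic AMP response element TGACGTCA was found for 1 member (1.83%) and the heat shock element TTCNNGAA for 1 (8.77%). Matches overlapped in Slc3a1 (TATA boxes on both strands) and in Slc7a12 (the same, and AGAACA with a TATA box). A match is a string of letters and not a shown site of binding.

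Mated and unmated rats were compared gene by gene with limma, with P-values adjusted over all 14506 genes. No member passed an adjusted p of 0.05, and neither did any other gene (0 of 14506, 0%), the smallest adjusted p being 0.984. Before adjustment, 2 of the 54 members had a p under 0.05 (3.70%), 1 higher and 1 lower in mated rats, against 663 of all genes (4.57%), of which 3.02% were higher and 1.55% lower (438 and 225 genes, and 336 and 294 after subtracting each array's median). The signals of mated and unmated rats did not overlap for 4 members (7.41%), 3 higher and 1 lower in mated rats, against 8.47% of all genes (5.24% higher and 3.23% lower). Both shares lie near those of all genes, so neither sets the members apart. The median log2 fold change was 0.04 over the members and 0.01 over all genes.

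**Figure D1:**
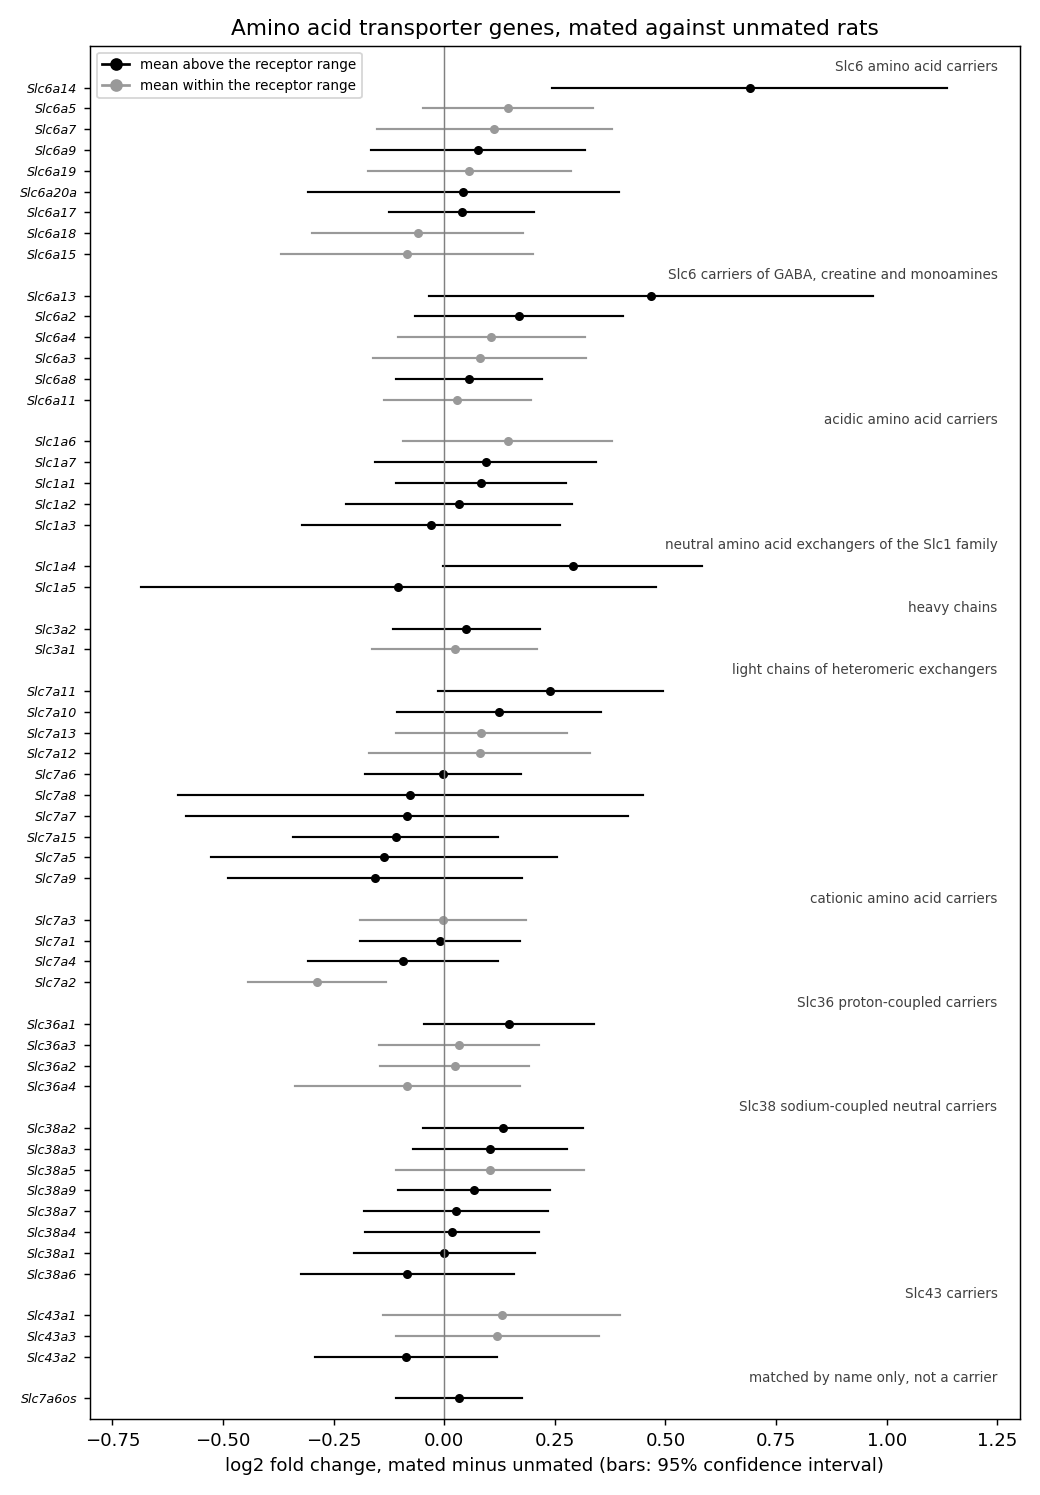
The log2 fold change of each of the 54 members, mated minus unmated, is plotted as a point with its 95% confidence interval, grouped by subfamily. Black marks members with a mean signal above the receptor range (34) and grey those within it (20); the intervals of Slc6a14 and Slc7a2 alone leave out 0.

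As a rough measure of background, 1240 receptor genes for odorants and pheromones were taken, which few tissues other than sensory neurons use, with the 95th percentile of their mean signals, 7.13, as its upper limit. By this guide 34 of 54 members (63.0%) lay above the receptor range, against 71.1% of all genes. The other 20 lay within it and may be near background in this tissue; among them were Slc7a2, the kidney and gut heavy chain Slc3a1, and the kidney and gut carriers Slc6a18 and Slc6a19. The 95% confidence interval of a member reached 0.23 to either side of the estimate at the median, and for 50 of the 54 members it lay wholly within a 1.5-fold difference in either direction.

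Slc6a14 encodes a broad carrier of neutral and cationic amino acids that is driven by sodium and chloride and sits on the luminal side of epithelia such as airway and colon. Slc6a14 and Slc7a2 were singled out with earlier results from these arrays known, so their small p-values are no independent evidence. Slc6a14 measured 10.31, 10.29 and 10.43 in the 3 mated rats, against 10.04, 9.17 and 9.75 in the 3 unmated rats. All mated signals lay above all unmated signals, with the mated rats close together and the unmated rats spread over 0.87 log2 units. The mean was 10.34 ± 0.08 in mated and 9.65 ± 0.44 in unmated rats (SD, n = 3 each), a log2 fold change of 0.69 (95% confidence interval 0.24 to 1.14), or 1.61-fold, which did not pass the threshold (limma adjusted p = 0.984, unadjusted p = 0.00741). It was the largest difference among the members in either direction. The size depends on the unmated rat of lowest signal: without unmated replicate 2 the log2 fold change was 0.45 (0.19 to 0.71).

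Markers of the lining's cell types are given beside this result because the tissue was measured in bulk, where fewer cells of a type and less RNA per cell cannot be told apart. The mean of 6 epithelial markers (keratins, Epcam and Cdh1, all above the receptor range), relative to the unmated mean, was -0.01, -0.03 and 0.14 in the mated rats, against -0.01, -0.10 and 0.11 in the unmated rats. The lowest epithelial mean and the lowest Slc6a14 signal were both in unmated replicate 2, but the other unmated rats were ordered differently. The mean of the 4 measured secretory markers was -0.10, 0.09 and 0.18 in mated and 0.01, 0.04 and -0.05 in unmated rats, and that of the 6 measured ciliated cell markers 0.12, -0.15 and -0.14 in mated and -0.09, 0.08 and 0.01 in unmated rats. No neutrophil or lymphocyte marker lay above the receptor range (0 of 5 and 0 of 4). Within that range, 2 of 5 neutrophil and 1 of 4 lymphocyte markers had an unadjusted p under 0.05 by limma. Elane (0.22, 0.07 to 0.38) and S100a8 (0.26, 0.01 to 0.52) were higher in mated rats and Nkg7 (-0.23, -0.45 to -0.00) was lower. Among 5 measured endothelial markers, 4 of them above the receptor range, 1 was higher and 1 lower at that p. Of 7 fibroblast markers, 1 was lower. Of all genes, 3.02% were higher and 1.55% lower at that p. Estimates were above 0 for 4 of 5 neutrophil, 2 of 4 lymphocyte, 4 of 6 epithelial, 3 of 4 secretory and 0 of 6 ciliated markers. All mated signals lay above all unmated signals for 1 neutrophil, 1 lymphocyte and 1 endothelial marker, against 5.24% of all genes. They lay below for 1 endothelial, 1 fibroblast and 1 macrophage marker, against 3.23% of all genes. Groups overlapped for the epithelial, secretory and ciliated lists, and their part in the Slc6a14 result was not tested.

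**Figure D2:**
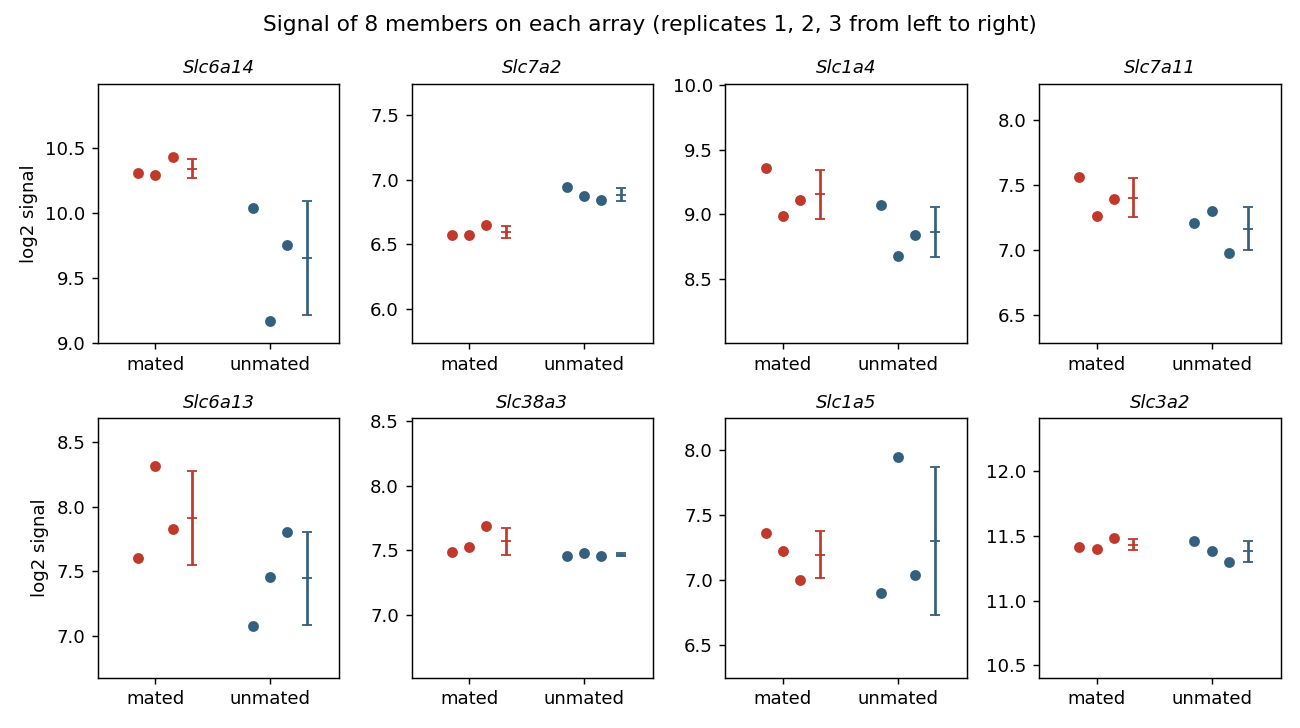
The log2 signal of 8 members is shown for each array, mated rats in red on the left and unmated rats in blue on the right, with the mean and SD of 3 arrays beside the points; each panel spans 2 log2 units. The groups separate for Slc6a14 and Slc7a2 and, by a small gap, for Slc38a3, while unmated replicate 2 stands apart for Slc6a14 and Slc1a5.

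Slc7a2 encodes CAT2, a sodium-independent carrier of arginine, lysine and ornithine, which in mouse macrophages supplies arginine to the inducible nitric oxide synthase. It measured 6.57, 6.57 and 6.65 in mated rats, against 6.94, 6.87 and 6.84 in unmated rats. Every mated signal lay below every unmated signal, with a narrow spread in both groups. The log2 fold change was -0.29 (95% confidence interval -0.44 to -0.13), from means of 6.60 ± 0.05 in mated and 6.88 ± 0.05 in unmated rats (SD, n = 3 each; limma adjusted p = 0.984, unadjusted p = 0.00282). These signals lie within the receptor range, so the difference is one between signals near background. The mean of 6 macrophage markers, 5 of them above the receptor range, was -0.03, -0.13 and -0.05 in mated rats, against 0.10, -0.04 and -0.06 in unmated rats, and its part in this difference was not tested.

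The other 3 cationic carriers measured lay within 0.10 of 0. Slc7a1, the widely used arginine carrier CAT1, was at 9.97, 10.12 and 10.18 in mated rats and at 10.16, 10.07 and 10.07 in unmated rats, with a log2 fold change of -0.01 (-0.19 to 0.17). Slc7a4, a relative whose transport activity is not established, differed by -0.09 (-0.31 to 0.12), and Slc7a3, within the receptor range, by -0.00 (-0.19 to 0.18). The median of the 4 genes was -0.05, and all 4 estimates were at or below 0 under the 3 scalings of the arrays. Without mated replicate 1, which had the lowest Slc7a1 and Slc7a4 signals, 2 of the 4 were above 0.

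The Slc6 family as a whole had 13 of 15 members with estimates above 0 in mated rats and the Slc7 carriers 4 of 14, where 53.2% of all genes were above 0. The Slc6 count was 12 after a second quantile normalization and 13 after median centring, and the Slc7 count 5 and 4. The share of all genes above 0 was 51.2% and 46.6% under these scalings. As deposited, it was 49.3% among genes above the receptor range, and so more than 53.2% among genes within it. Leaving out single arrays moved the Slc6 count between 12 and 13 and the Slc7 count between 4 and 7. The medians were 0.08 for Slc6 and -0.04 for Slc7, which is small beside the interval of a single gene, and the difference between the families was not tested. Of the 15 Slc6 members 8 lay within the receptor range, and of the 14 Slc7 carriers 4.

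Among the 9 measured Slc6 amino acid carriers, only Slc6a14 had a p under 0.05, and 7 were higher and 2 lower at a median of 0.06. Slc6a9 encodes the glycine carrier GLYT1, through which mouse eggs and early embryos take up glycine to hold their volume. It measured 10.27, 9.98 and 10.24 in mated rats, against 10.06, 9.97 and 10.23 in unmated rats. The groups overlapped almost completely, with a log2 fold change of 0.08 (-0.16 to 0.32). The proline carrier family members Slc6a20a and Slc6a7 differed by 0.04 (-0.31 to 0.39) and 0.11 (-0.15 to 0.38), and Slc6a17, a vesicular carrier of neurons, by 0.04 (-0.12 to 0.20). Slc6a5, the neuronal glycine carrier, differed by 0.14 (-0.05 to 0.34) within the receptor range. Slc6a18 and Slc6a19, luminal carriers of neutral amino acids in kidney and gut, differed by -0.06 (-0.30 to 0.18) and 0.06 (-0.17 to 0.29), and Slc6a15, mainly a brain carrier, by -0.08 (-0.37 to 0.20), all within the receptor range.

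The 6 Slc6 carriers of GABA, creatine and monoamines were all above 0 as deposited and 5 of 6 after a second quantile normalization, at a median of 0.09, with none at an unadjusted p under 0.05. Only 3 of these 6 lay above the receptor range. Slc6a13, which encodes the GABA and taurine carrier GAT2 of liver, kidney and the meninges, had the smallest p of this group. Its signals were 7.60, 8.31 and 7.83 in mated rats, against 7.08, 7.46 and 7.80 in unmated rats. The groups overlapped in 1 pair of animals, and the spread within each group (SD 0.36 in both) was nearly as large as the log2 fold change of 0.47 (-0.04 to 0.97; limma adjusted p = 0.984). It was 0.27 without mated replicate 2, 0.28 without unmated replicate 1 and at most 0.64 when other single arrays were left out, and the unadjusted p fell under 0.05 in 4 of 15 alternatives. Slc6a8, the creatine carrier, was at 9.48, 9.32 and 9.41 in mated and 9.36, 9.38 and 9.30 in unmated rats, a difference of 0.06 (-0.11 to 0.22). The carriers of noradrenaline (Slc6a2), dopamine (Slc6a3) and serotonin (Slc6a4) differed by 0.17 (-0.06 to 0.40), 0.08 (-0.16 to 0.32) and 0.11 (-0.11 to 0.32), and only Slc6a2 lay above the receptor range. Slc6a11, the GABA carrier GAT3, differed by 0.03 (-0.14 to 0.20).

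In the Slc1 family, Slc1a4 and Slc1a5 encode ASCT1 and ASCT2, which exchange small neutral amino acids such as alanine and serine. Slc1a4 was at 9.36, 8.99 and 9.11 in mated rats, against 9.07, 8.68 and 8.84 in unmated rats. The highest unmated signal lay above the lowest mated one, so the groups overlapped, and the log2 fold change was 0.29 (-0.00 to 0.58; limma adjusted p = 0.984, unadjusted p = 0.0519). The log2 fold change was 0.19 without mated replicate 1 and 0.39 without unmated replicate 1, and the unadjusted p fell under 0.05 in 6 of 16 alternatives. Slc1a5 measured 7.36, 7.22 and 7.0 in mated rats, against 6.90, 7.95 and 7.04 in unmated rats. Unmated replicate 2 alone was high, and the unmated signals ranged over 1.05 log2 units, the widest spread of any member in unmated rats; the log2 fold change was -0.10 (-0.69 to 0.48). Slc1a4 and Slc6a14, by contrast, were both lowest in that animal.

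The 5 acidic carriers take up glutamate and aspartate, and none had a p under 0.05. Slc1a3, the glial carrier GLAST, and Slc1a1, the widespread epithelial and neuronal carrier EAAC1, lay well above the receptor range. Slc1a1 was at 9.58, 9.55 and 9.52 in mated rats and at 9.32, 9.58 and 9.50 in unmated rats, with a difference of 0.08 (-0.11 to 0.27). Slc1a3 differed by -0.03 (-0.32 to 0.26). Slc1a6, a carrier of cerebellar neurons, had the smallest p of the group at 0.14 (-0.09 to 0.38) within the receptor range, and the retinal carrier Slc1a7 and the glial carrier Slc1a2 differed by 0.09 (-0.16 to 0.34) and 0.03 (-0.22 to 0.29).

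Of the heavy chains, Slc3a2, known as CD98hc or 4F2hc, measured 11.41, 11.40 and 11.48 in mated rats, against 11.46, 11.38 and 11.30 in unmated rats. Mated and unmated signals were interleaved, and the log2 fold change of 0.05 (-0.12 to 0.22) was within the spread between animals. Slc3a1, the partner of the cystine carrier Slc7a9, differed by 0.02 (-0.16 to 0.21) within the receptor range.

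The 10 light chains had 4 estimates above 0 and 6 below, 5 and 5 after a second quantile normalization, at a median of -0.04. Slc7a11, the cystine importer xCT that supplies cysteine for glutathione, had the smallest p of them. It was at 7.56, 7.26 and 7.39 in mated rats, against 7.21, 7.30 and 6.98 in unmated rats, so the lowest mated signal fell below the highest unmated one. The log2 fold change was 0.24 (-0.01 to 0.49; limma adjusted p = 0.984), and it was 0.15 to 0.31 when single arrays were left out. Slc7a5, the leucine carrier LAT1 of growing cells, was at 8.10, 7.72 and 7.85 in mated and 8.29, 8.14 and 7.65 in unmated rats, a difference of -0.14 (-0.53 to 0.25).

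Several light chains varied more between animals of a group than between groups. Slc7a8, the epithelial leucine carrier LAT2, measured 7.85, 7.90 and 7.67 in mated rats, against 8.48, 7.66 and 7.51 in unmated rats, with unmated replicate 1 alone high; the difference was -0.08 (-0.60 to 0.45). Slc7a9, the cystine carrier of kidney and gut, was at 7.98, 7.90 and 7.93 in mated rats and at 8.35, 8.19 and 7.74 in unmated rats, a difference of -0.16 (-0.49 to 0.18). Slc7a5, Slc7a8 and Slc7a9 were thus each highest in unmated replicate 1 and lowest in unmated replicate 3 within the unmated group. Of 7 fibroblast markers, 6 lay above the receptor range. In the deposited values all 7 had estimates below 0, while 53.2% of all genes had estimates above 0. A second quantile normalization left 5 of the 7 below 0, and median centring left 7. The number was 5 without mated replicate 1 and 4 without unmated replicate 1. Only Dpt had an unadjusted p under 0.05 by limma (-0.46, -0.69 to -0.22), and its groups did not overlap. The mean of the 7 fibroblast markers was -0.27, -0.13 and -0.14 in mated rats, against 0.15, 0.10 and -0.24 in unmated rats. It followed the same order among the unmated rats, as did the means of the macrophage and mesothelial markers. Among the mated rats the fibroblast mean was lowest in replicate 1, where Slc7a5 and Slc7a9 were highest. The part of these cell types in the signals was not tested. Slc7a7, the y+LAT1 chain found in epithelia and macrophages, was instead highest in unmated replicate 3 among the unmated rats, at 8.93, 8.21 and 8.46 in mated and 8.51, 8.33 and 9.01 in unmated rats, with a difference of -0.08 (-0.58 to 0.42).

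The remaining light chains differed little. Slc7a6, the y+LAT2 chain, differed by -0.00 (-0.18 to 0.17), Slc7a10, the small neutral amino acid exchanger Asc-1, by 0.12 (-0.11 to 0.35) and Slc7a15 by -0.11 (-0.34 to 0.12). Slc7a12 and Slc7a13, used mainly in kidney, differed by 0.08 (-0.17 to 0.33) and 0.08 (-0.11 to 0.28) within the receptor range. Slc7a6os, matched by name only, is an example of separation without size: its mated signals of 8.53, 8.52 and 8.50 all exceeded its unmated signals of 8.48, 8.49 and 8.48, yet the difference was 0.03 (-0.11 to 0.18).

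Several Slc38 carriers, though not all, bring glutamine and other small neutral amino acids into cells with sodium. Of the 8 Slc38 genes measured, 6 were above 0, 1 below and 1 equal, at a median of 0.05, with none at an unadjusted p under 0.05. After a second quantile normalization and after centring, 5 were above 0. Slc38a2, the adaptive carrier SNAT2 that cells raise when amino acids or water are short, was at 12.36, 12.37 and 12.51 in mated rats and 12.37, 12.20 and 12.27 in unmated rats. The groups overlapped by 1 unmated rat, at a log2 fold change of 0.13 (-0.05 to 0.31). Slc38a3, the liver and brain carrier SNAT3, was at 7.49, 7.53 and 7.69 in mated rats, against 7.46, 7.48 and 7.46 in unmated rats; the groups did not overlap, but the difference was 0.10 (-0.07 to 0.28) and the groups overlapped under median centring. Slc38a1, whose promoter is printed above, had the same mean in both groups, 10.91 ± 0.11 (SD, n = 3 each; difference 0.00, -0.20 to 0.20). Slc38a9, the lysosomal arginine sensor of mTORC1, differed by 0.07 (-0.11 to 0.24). The other 4 ranged from -0.08 for Slc38a6 to 0.10 for Slc38a5, of which Slc38a5 lay within the receptor range.

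Of the proton-coupled carriers, Slc36a1, which exports amino acids from lysosomes and takes up glycine and proline at the gut surface, was the only one above the receptor range. It measured 9.02, 8.99 and 9.15 in mated rats, against 9.03, 8.84 and 8.85 in unmated rats, with overlap from unmated replicate 1 alone and a log2 fold change of 0.15 (-0.04 to 0.34). Slc36a2, Slc36a3 and Slc36a4 ranged from -0.08 to 0.03. In the Slc43 family, the leucine carrier LAT4, Slc43a2, differed by -0.09 (-0.29 to 0.12), and Slc43a1 (LAT3) and Slc43a3, a purine base carrier despite its family name, by 0.13 (-0.14 to 0.40) and 0.12 (-0.11 to 0.35), both within the receptor range.

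Beside the members stand 2 measured osmolyte carriers outside the rule. Slc6a6, the taurine carrier, was at 10.88 ± 0.12 in mated and 10.78 ± 0.19 in unmated rats (SD, n = 3 each), a difference of 0.10 (-0.16 to 0.35). Slc5a3, the myo-inositol carrier, was at 10.92, 10.84 and 11.26 in mated rats, against 10.31, 10.24 and 10.55 in unmated rats, a log2 fold change of 0.64 (0.34 to 0.94; limma adjusted p = 0.984). Its groups did not overlap, where 5.24% of all genes were higher without overlap. The log2 fold change was 0.51 to 0.73 when single arrays were left out. Slc5a3 and Slc6a14 were both lowest in unmated replicate 2, but among the other unmated rats they were ordered differently.

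Genes that respond to a lack of amino acids were examined because several carriers belong to the same response. Of 21 measured, 3 were higher and none lower at an unadjusted p under 0.05, where all genes gave 3.02% higher, and 0 passed the adjusted threshold. These counts were not stable: 0 were higher without unmated replicate 2 or unmated replicate 3, 1 without mated replicate 1, without mated replicate 2 or with array weights, and 2 were lower without mated replicate 1. Estimates were above 0 for 16 as deposited, 14 after a second quantile normalization and 12 after median centring, at a median of 0.05. The 3 were Atf5 (0.19, 0.04 to 0.34), a transcription factor of the stress response, Trib3 (0.30, 0.02 to 0.57), a pseudokinase that restrains ATF4 signalling, and Nupr1 (0.36, 0.05 to 0.67), a stress-induced chromatin protein. Without unmated replicate 2, the log2 fold change of Trib3 was 0.19 and that of Nupr1 0.25, and each of these genes kept an unadjusted p under 0.05 in 2 of 6 fits that left out 1 array. Atf5, which kept it in 3 of 6, was at 8.33, 8.35 and 8.39 in mated rats, against 8.21, 8.15 and 8.14 in unmated rats, without overlap. Nupr1 was at 9.88, 9.69 and 9.50 in mated and 9.55, 9.11 and 9.34 in unmated rats, with overlap. Atf4, Asns and Psat1 are given as context and were chosen after their values were seen. Atf4 differed by 0.09 (-0.07 to 0.25) and Asns, asparagine synthetase, by 0.01 (-0.24 to 0.27). Psat1, an enzyme of serine synthesis, had the lowest estimate, -0.36 (-0.81 to 0.09).

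**Figure D3:**
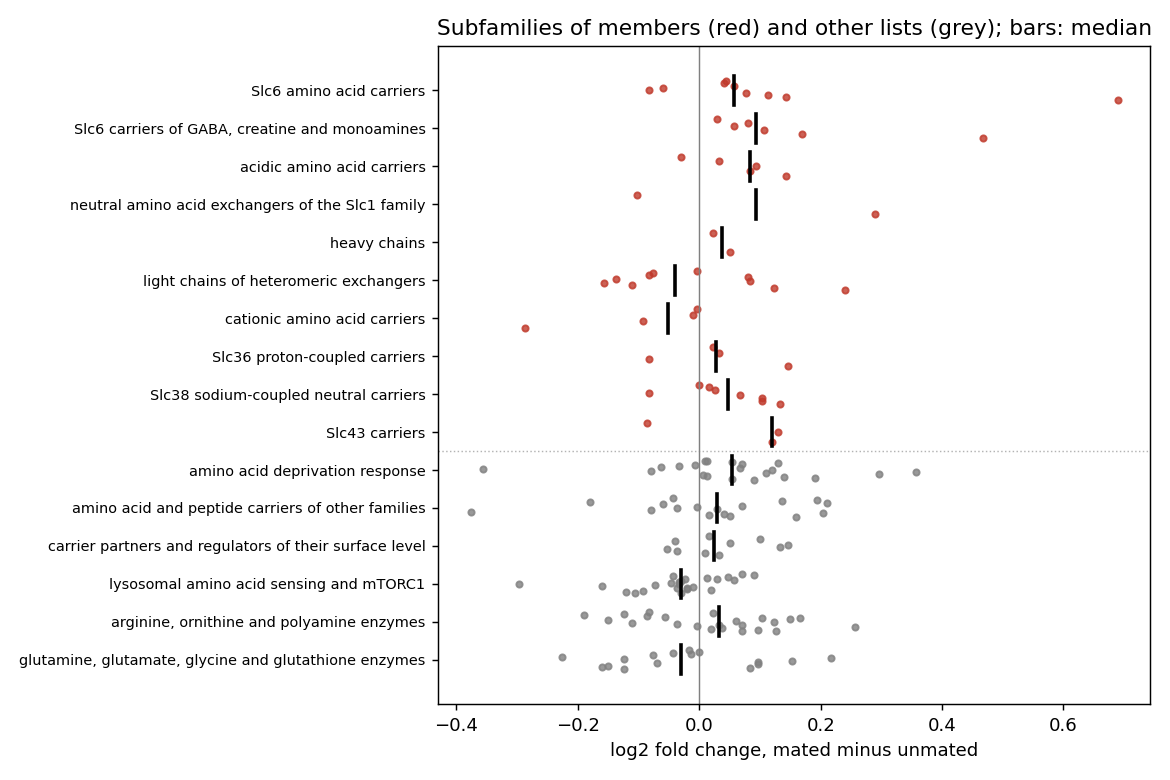
Each point is the log2 fold change of 1 gene, mated minus unmated, for 10 subfamilies of members (red) and 6 other lists of amino acid biology (grey); black bars are medians and the vertical spread within a row only separates the points. The medians lie between -0.05 and 0.12, and Slc6a14, Slc6a13, Slc1a4, Slc7a11 and Slc7a2 are the members farthest from 0.

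Other lists of amino acid handling held few small p-values, and for all genes 3.02% were higher and 1.55% lower at an unadjusted p under 0.05. Of 17 measured amino acid and peptide carriers of other families, 2 were lower and none higher at an unadjusted p under 0.05: Slc25a15, the mitochondrial ornithine carrier, at 11.90, 11.96 and 12.45 in mated rats against 12.64, 12.40 and 12.40 in unmated rats (-0.38, -0.72 to -0.03), and Slc17a6, a vesicular glutamate carrier within the receptor range (-0.18, -0.33 to -0.03). The balance of this list turned to 3 higher and 1 lower without mated replicate 1 and to 4 higher and 1 lower with array weights, and 0 passed without mated replicate 2. Slc25a15 ranged from -0.55 to -0.28 when single arrays were left out and kept a p under 0.05 in 2 of 6 such fits. Of 23 enzymes of arginine, ornithine and polyamine metabolism, 1 was higher. This was Ass1, argininosuccinate synthetase, which remakes arginine from citrulline, at 9.52, 9.53 and 9.51 in mated rats, against 9.18, 9.43 and 9.18 in unmated rats (0.26, 0.06 to 0.45). Of 16 enzymes of glutamine, glutamate, glycine and glutathione, 1 was higher: Ggt1, the surface enzyme that cleaves glutathione and releases its amino acids, at 10.26, 10.52 and 10.28 in mated rats, against 10.14, 10.08 and 10.19 in unmated rats (0.22, 0.01 to 0.42). Ggt1 was at 0.13 without mated replicate 2 and kept a p under 0.05 in 2 of 6 fits that left out 1 array. None of 24 genes of lysosomal sensing and mTORC1 and none of 10 carrier partners and regulators had a p under 0.05; Castor2, an arginine sensor homologue, had the smallest p of the sensing list (-0.30, -0.66 to 0.07) and Arrdc3, an arrestin-like adaptor, of the partners (0.13, -0.11 to 0.37).

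**Figure D4:**
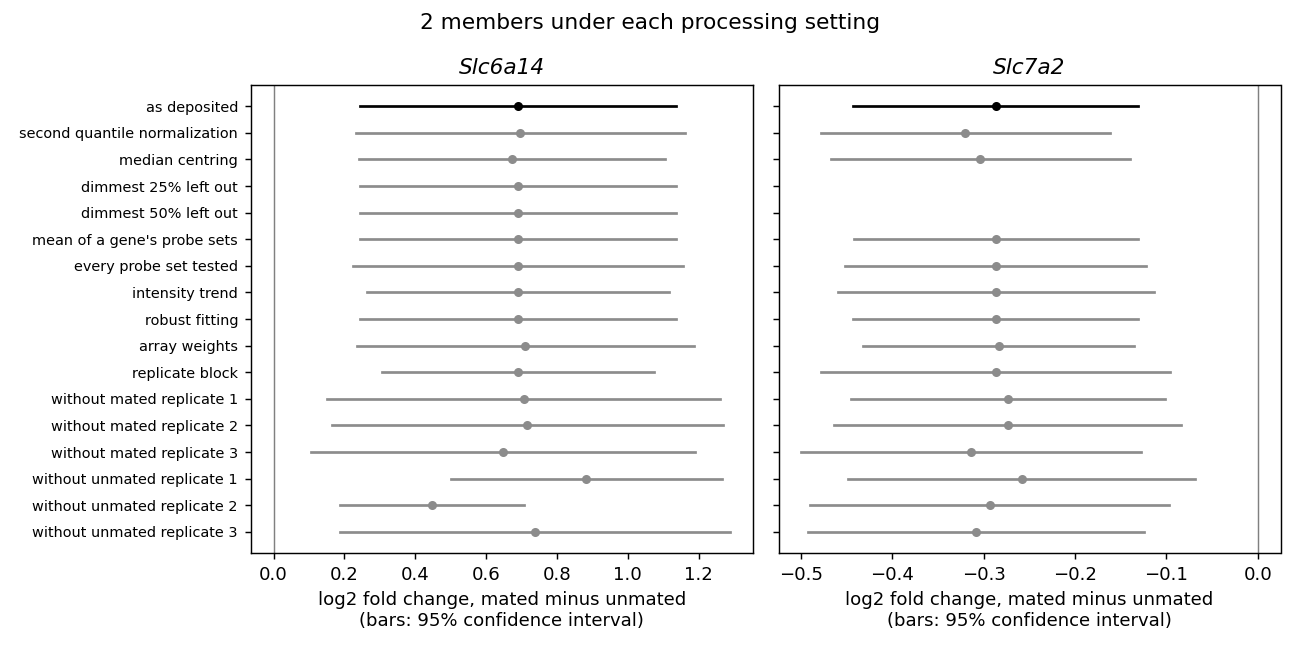
The log2 fold changes of Slc6a14 and Slc7a2, mated minus unmated, are shown with 95% confidence intervals as deposited (black) and under each alternative (grey). Slc6a14 ranged from 0.45 to 0.88 over 16 alternatives and Slc7a2 from -0.32 to -0.26 over 14, since filters on dim genes removed it.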

How the data were processed

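The authors deposited log2 signals, 1 per probe set and array; per the submitters' processing notes they were made with RMA and Affymetrix Expression Console, and the log2 scale was inferred from that method and the size of the values. Versions, scan dates and the genome build behind the probe sets are not given in the sources used here. RMA gives all arrays a similar distribution and compresses differences of dim probe sets. Array medians lay between 7.89 and 7.94.

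Of 29214 probe sets, 15310 had exactly 1 gene symbol in the platform annotation, 323 had several and 13581 none listed. Only the first kind was used, with the probe set of highest mean for each gene, which gave 14506 genes. Of the 15310, 15279 were found in RefSeq (GRCr8) by Entrez identifier, with 0 symbols differing. Mated minus unmated was fitted with limma 3.58.1 (R 4.3.3; lmFit and eBayes, no trend, no robust fitting, no block) on all 6 arrays, with Benjamini-Hochberg adjustment over all genes and a threshold of 0.05; the procedure was tested on simulated data. Tests were two-sided, and intervals are those of the moderated fit. The number of arrays limits the precision, and depth has no meaning for them.

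Members, lists, motifs and the rule for named genes were chosen with earlier results of these data known. The rule named Slc6a14, Slc7a2, members with p under 0.05 or groups without overlap, the member of smallest p of each subfamily, further members by role, and from each other list the genes with p under 0.05 or, failing any, the gene of smallest p. Genes of the lists named otherwise (Slc6a6, Slc5a3, Atf4, Asns and Psat1) serve as context, the last 3 chosen after their values were seen. Lists of smooth muscle, endothelial, neutrophil, lymphocyte, erythroid, adipocyte, mesothelial and neuronal markers had median log2 fold changes from -0.03 to 0.20. The alternatives comprised 2 further scalings, filters on dim genes, all probe sets, their mean per gene, array weights, robust fitting, an intensity trend, a replicate block and leaving out each array.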

Additional observations from a re-analysis of the deposited data

How the results depend on the processing

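No alternative gave a member or any other gene an adjusted p under 0.05 (0 calls in every setting run, by limma). Slc6a14 kept its direction and an unadjusted p under 0.05 under all 16 alternatives, with log2 fold changes from 0.45 to 0.88, and Slc7a2 under all 14 that kept it, from -0.32 to -0.26. Several of these alternatives could not move the log2 fold change, so the counts are not counts of independent checks. Each member has 1 probe set, so using all probe sets or their mean left its signals unchanged. Filters on other genes, robust fitting, the intensity trend and the replicate block alter only the p-value. The dimmest 25% and the dimmest 50% of the genes included Slc7a2. The labels give no pairing of animals by replicate number. Deviations from the group means correlated at 0.00, -0.08 and 0.07 for equal numbers, and at -0.13 to 0.14 for unequal numbers. With 3 animals per group these correlations cannot show whether animals were paired. With the number as a block (the replicate block) Slc6a14 stayed at 0.69 and Slc7a2 at -0.29, while 3 members were higher at an unadjusted p under 0.05.

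Members higher at an unadjusted p under 0.05 numbered 1 as deposited, 2 after a second quantile normalization, with an intensity trend, with array weights or without the dimmest 50%, and 2 to 4 without single arrays; the added genes were among Slc1a4, Slc6a13, Slc7a11, Slc36a1, Slc6a2, Slc6a5, Slc6a7, Slc7a12 and Slc38a5. Members lower numbered 0 without the dimmest 25% or 50% and 1 to 3 without single arrays, with Slc7a5 and Slc7a9 added without unmated replicate 3. Members whose groups did not overlap, with mated rats higher, numbered 1 after median centring and 1 without the dimmest 50%. They numbered 5 to 11 without single arrays, where 2 against 3 animals separate more easily. With mated rats lower they numbered 0 under both filters and 1 to 5 without single arrays. The share of all genes without overlap was not counted under these settings, so these numbers do not set the members apart. Over all genes, 282 were higher at an unadjusted p under 0.05 without the dimmest 25%, 134 higher and 128 lower without the dimmest 50%, 769 and 438 with array weights, and 262 to 822 higher and 170 to 581 lower without single arrays, the most without mated replicate 1 and the fewest higher without unmated replicate 2.

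The median of the members was 0.0289 after a second quantile normalization and 0.025 after median centring, and 0.035 to 0.0558 without single arrays. That of all genes was 0.00306 after a second quantile normalization, 0.00333 without the dimmest 25%, -0.00667 after median centring and without the dimmest 50%, and 0.00333 to 0.0133 without single arrays. Filters left fewer genes per list: without the dimmest 25% the Slc36 median was 0.15 and the Slc43 median 0.0167, and without the dimmest 50% the Slc36 median was 0.15, Slc43 -0.0867, Slc6 amino acid carriers 0.38 and the neutral Slc1 exchangers 0.29. Without single arrays the medians ranged from 0.01 to 0.10 for acidic carriers, -0.0483 to 0.0608 for light chains, -0.01 to 0.055 for carriers of other families, -0.0217 to 0.0883 for carrier partners, 0.01 to 0.04 for arginine enzymes and -0.0833 to 0.0075 for glutamine and glutathione enzymes. The last list was also at -0.0467 after median centring, -0.00667 without the dimmest 50% and -0.0492 with the mean of a gene's probe sets. Between 0 and 9 members changed sign under an alternative, the largest of them at 0.10 as deposited.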
